A study of Zea mays with 144 samples.

Results

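Anthers of upper florets were set against anthers of lower florets of the maize inbred line Ky21 (Zea mays) at the early, mid- and mid/late (mixed) microspore stages. These comparisons took 12 of the 48 slides of the study, or 36 of its 144 scans. They were chosen by their labels alone, as the slides whose channels held the same microspore stage but different florets. Per the labels, RNA came from 8 to 20 anthers of each tassel, equal parts from 1 to 4 individuals formed a pool, and pools were amplified with T7 RNA polymerase before labelling with Cy3 or Cy5. The groups were upper floret anthers at the 3 stages (2 pools each) and lower floret anthers at the same 3 stages (2 pools each). The labels number the pools of a group 1 and 2, and both pools of a slide carried the same number, called a set here. Each stage and set was on 2 slides with the dyes exchanged, and every slide had 3 scans, of low, medium and high intensity. The 12 slides thus gave 6 floret differences over 12160 spotted cDNA features. The labels give no treatment, mutation or plant age for these groups, and all of them share one inbred line.

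A maize tassel spikelet holds a pair of florets. The upper floret develops ahead of the lower one, and anthers of both form haploid microspores that mature into pollen. Within the anther the microspores lie in a locule lined by the tapetum, a nurse tissue that supplies them and then breaks down. One aim in the study's design was to find genes that differ between the florets at one stage of anther development. Anthers of equal stage by light microscopy were set side by side. The part in the results of stage differences that microscopy left was not tested. Across features, the mean floret difference of set 1 had a correlation of -0.176 with the early to mid/late stage change of set 2, and that of set 2 one of -0.00956 with the change of set 1.

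Every value below is a log2 ratio of upper over lower floret anthers, so that 1 stands for a doubling and a positive value means higher in upper florets. The ratios carry no absolute level. The numerator of the deposited ratio is not in the labels, and the direction is therefore likely rather than settled. Read as deposited, exchanged dyes gave alike values, with a correlation across features between 0.285 and 0.57 in the 6 stage-and-set pairs. In 6 closed squares of slides, the change of the floret difference between neighbouring stages correlated with the difference of the stage changes, at r between 0.266 and 0.473. With the floret slides turned by their dyes, the same correlations lay between -0.0497 and 0.0423. These squares rest on stage slides read as Cy5 over Cy3, and turning that reading would exchange every higher and lower. The log base is likewise not in the labels. It is likely natural, as read from the values, and every size and fold depends on it. Spot signals are not used here, and the number of arrays and pools limits the precision. As a group had 2 pools, the p-values reflect how far pools differed and say nothing of single plants. In pooled anthers, fewer cells of a type and less RNA per cell cannot be told apart.

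Floret differences averaged over the 3 microspore stages passed the test in 889 of 12160 features (7.31%). The test was limma's moderated test with Benjamini-Hochberg adjustment over all features, at an adjusted p under 0.05. Of these, 476 (3.91%) were higher and 413 (3.4%) lower in upper florets. The median change of a called feature was 1.449-fold, and 108 changed by more than 2-fold. Across all features the median size of the log2 difference was 0.18. Among the called features, 750 had all 6 differences on one side of 0, as had 2626 features of the whole array (21.6%). Those 2626 were 1387 with all 6 above 0 (11.4%) and 1239 with all 6 below 0 (10.2%). The count rests on all 6 differences together. Without the mid-microspore difference of set 1 only 33 features passed, and without that of set 2 the number was 449. Leaving out the early stage left 75 (set 1) or 82 (set 2), and leaving out the mid/late stage left 172 (set 1) or 83 (set 2).

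Of the called features, 474 stood for 1 gene each (439 genes in all), 23 for several and 392 for none in the annotation used here. A gene name was available for 91 of them, from 80 genes, of which 46 features were higher and 45 lower in upper florets. Spotted cDNAs can bind transcripts of close relatives, so that members of one gene family are not fully separated. Where a gene had several features, some of them did not move together, and their values are given side by side. Of 177 called genes with several features, 28 had 2 or more called in one direction and 0 had features called in opposite directions. Of 50 features named by rule or leading a list, 3 kept their call whichever of the 6 differences was left out (mpk6, GIF2 and bZip37). In 24 the call ended in all 6 cases, with adjusted p up to 0.184 over the 50. Every sign stayed, but for features with all 6 differences on one side of 0 this was fixed in advance. The plot of the named features shows the 6 differences of each.

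**Figure D1:**
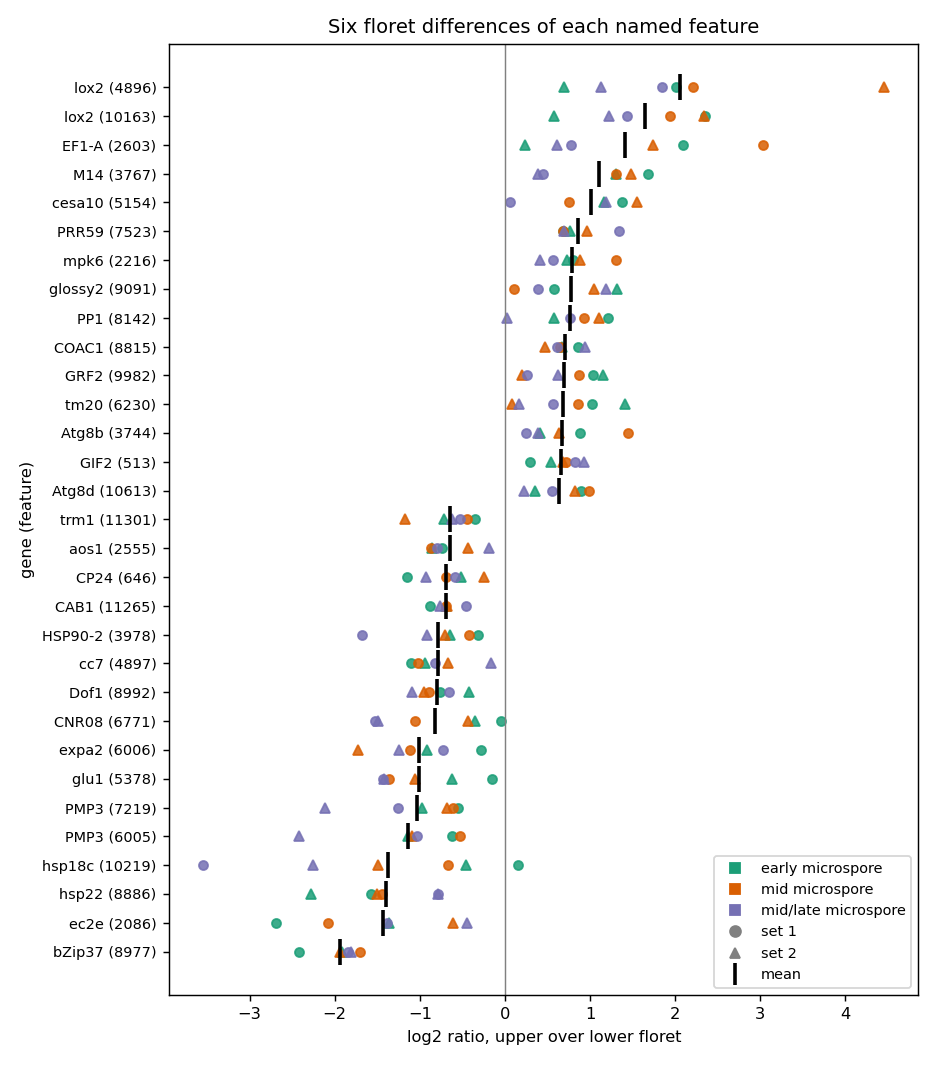
Log2 ratio of upper over lower florets (x axis) for the 31 features named by rule (y axis, gene and feature number). Points are the 6 stage-and-set differences (colour, stage; shape, set) and the black bar is their mean; lox2 had the highest mean at 2.06 and bZip37 the lowest at -1.94.

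The highest named gene was lox2, a lipoxygenase gene. Lipoxygenases oxidise polyunsaturated fatty acids, a step that feeds the synthesis of jasmonate and other oxylipins. Feature 4896 of lox2 had log2 differences of 2.01 and 0.69 at the early stage, 2.21 and 4.46 at the mid-stage and 1.85 and 1.13 at the mid/late stage (set 1 and then set 2, here and below). All 6 lay above 0, as did all 12 single slides, and the mid-stage of set 2 was the highest. The mean of the 6 differences was 2.06 ± 0.42 (moderated SE, 4.16-fold, adjusted p = 0.0287). Here and below, the SE comes from the limma fit to the floret differences of all 6 stages. Feature 10163 of lox2 had 2.35 and 0.58, 1.94 and 2.34, and 1.43 and 1.22 at the 3 stages in turn (mean 1.64 ± 0.39, adjusted p = 0.041). Another lox2 feature, 4681, had a mean of only 0.08 (adjusted p = 0.898). In 19 of 36 scans it held the most frequent value of the scan, called a repeated value below. Whether such values draw averages toward 0 was not tested. Both calls ended whichever of the 6 differences was left out, with adjusted p between 0.0672 and 0.113 for feature 4896 and between 0.0713 and 0.154 for feature 10163.

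The genes aos1 and lox3 did not follow one direction. Which oxylipins the products of lox2 and lox3 feed is not shown by these data. Allene oxide synthase, the gene aos1, acts after a lipoxygenase on the way to jasmonate. Its feature 2555 was lower in upper florets, with -0.73 and -0.85, -0.87 and -0.44, and -0.80 and -0.19 over the stages (mean -0.65 ± 0.12, adjusted p = 0.0227). All 12 slides of that feature were below 0, whereas the second aos1 feature, 641, had a mean of 0.11 (adjusted p = 0.737, 11 of 36 scans at a repeated value). The lipoxygenase gene lox3 had a mean of 1.00 in feature 6703, just outside the threshold (adjusted p = 0.0503). In the hormone list as a whole, 4 of 30 features were higher and 3 lower in upper florets (23.3% called, against 7.31% of all features), with a median of 0.09 against 0.01 over all features. The called auxin genes were ARF8, an auxin response factor (0.57), AUX1 feature 7862 (0.53), AUX6 feature 4560 (-0.44) and AUX35 (-0.34).

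A MADS box feature, 3767, named M14, M8, MADS5, zmm14 and zmm8 in the annotation, was higher in upper florets on average, with all 6 differences above 0. MADS box genes encode transcription factors that set floral organ and meristem identity, and ZMM8 and ZMM14 are known in maize as genes of the upper floret. The differences were 1.68 and 1.30 at the early, 1.30 and 1.49 at the mid- and 0.44 and 0.39 at the mid/late stage (mean 1.10 ± 0.19, 2.14-fold, adjusted p = 0.0207). Both mid/late values were below the 4 earlier ones. Of 12 slides, 11 were above 0. No single stage passed for this feature (adjusted p of 0.159, 0.175 and 0.651 in stage order), nor did the test over the 3 stages (adjusted p = 0.999). Of the other MADS features, bde1 (bearded-ear, also ZAG3) was higher, with -0.07 and 0.50, 0.46 and 0.75, and 0.30 and 0.42 (mean 0.39 ± 0.10, adjusted p = 0.0448). In all, 2 of 10 MADS box features were called higher and 0 lower (over all features 3.91% and 3.4%), and the remaining 8 had means between -0.12 and 0.25. The MADS box list was added later, with results of these data known, so that its share is only a description. Feature 3767 is counted again in the list of transcription factors. Leaving out 1 difference ended the call of feature 3767 in 5 of 6 cases (adjusted p up to 0.0923) and that of bde1 in all 6.

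Among transcription factor genes the lowest was bZip37, of the leucine zipper class. Its feature 8977 had -2.42 and -1.92, -1.70 and -1.94, and -1.85 and -1.81 (mean -1.94 ± 0.17, a 3.84-fold difference, adjusted p = 0.00258). The 6 values stood within 1 log2 unit of each other, and the 12 slides lay between -2.47 and -1.39. The call remained in each of the 6 fits that left out 1 difference, with adjusted p up to 0.0237. The other 3 bZip37 features, 80, 1429 and 11777, had means of 0.01, -0.15 and -0.03, and did not pass. Dof1, a transcription factor of the Dof zinc finger family, was lower in upper florets in all 12 slides (mean -0.80 ± 0.16, adjusted p = 0.0268). The list of transcription factors held 77 features, of which 3 were called higher and 2 lower, with a median of 0.05. Over all features 3.91% were called higher and 3.4% lower.

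Further named genes higher in upper florets were mpk6, GIF2 and GRF2. The MAP kinase gene mpk6, of a family that relays stress and developmental signals, had 0.81 and 0.73, 1.30 and 0.88, and 0.57 and 0.41 in feature 2216 (mean 0.78 ± 0.09, 1.72-fold, adjusted p = 0.00649). All 12 slides were above 0, with a median of 1.04 where the upper pool was in Cy5 and 0.48 where it was in Cy3. The call remained in all 6 fits without 1 difference. A second feature of mpk6, 9138, had a mean of 0.16 (adjusted p = 0.354). GIF2, named after the coactivators of growth-regulating factors, had 0.29 and 0.54 at the early, 0.72 and 0.68 at the mid- and 0.83 and 0.93 at the mid/late stage in feature 513 (mean 0.66 ± 0.08, adjusted p = 0.00542). Each set had its lowest value at the early stage, and this call also remained without any 1 difference (adjusted p up to 0.0429). Feature 5163 of GIF2 had a mean of -0.08 and did not pass. GRF2 (feature 9982) was higher in all 12 slides, with 1.03 and 1.15, 0.87 and 0.20, and 0.26 and 0.62 (mean 0.69 ± 0.11, adjusted p = 0.0157).

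Kinase and phosphatase genes as a list were called in both directions, 3 of 25 features higher and 3 lower (24.0% called, against 7.31% of all features). Beside mpk6, SnRK2.8, of a kinase family that takes part in abscisic acid signalling, had a mean of 0.80 ± 0.17 (adjusted p = 0.0304). Its mid-stage value of set 2, -0.24, was the 1 difference below 0. The MAP kinase kinase gene mek1 was the third higher member (0.39), and its 6 values ran from 0.16 to 0.81. The lower members were PP2C18 (-0.58), the calcineurin B-like interacting kinase gene cipk31 (-0.51) and PP2C3 (-0.45). PP2C genes encode protein phosphatases. A feature named PP1 and prh1, a further protein phosphatase gene, was higher (feature 8142, mean 0.77 ± 0.18, adjusted p = 0.0422), and its mid/late value of set 2 was 0.03.

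Called features of other roles with large values were EF1-A, cesa10, PRR59, glossy2, COAC1 and tm20, all higher in upper florets. EF1-A, translation elongation factor 1 alpha, had 2.10 and 0.24, 3.03 and 1.74, and 0.78 and 0.61 in feature 2603 (mean 1.42 ± 0.32, 2.67-fold, adjusted p = 0.0358). Its other features, 5666, 6050 and 11476, had means of 0.44, 0.03 and 0.04 and did not pass. The pseudo-response regulator gene PRR59, of a family known from the circadian clock, was called in both of its features (7523, mean 0.86; 6343, mean 0.63), and all 12 slides of each were above 0. COAC1, named as a mitochondrial coenzyme A carrier, lay between 0.47 and 0.94 in the 6 differences (mean 0.70 ± 0.10, adjusted p = 0.0122). The wax gene glossy2 had 0.57 and 1.32, 0.11 and 1.04, and 0.39 and 1.19 in feature 9091, with set 2 above set 1 at each stage (mean 0.77 ± 0.19, adjusted p = 0.0462). Its feature 8136 had a mean of -0.01. For tm20 the mean was 0.68 ± 0.16 (adjusted p = 0.0419). VTE5, a phytol kinase gene of tocopherol synthesis, had -0.43 and 0.55, 1.19 and 0.89, and 2.33 and 1.91 (mean 1.07 ± 0.24, adjusted p = 0.0346), with the 2 mid/late values the highest.

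Cell wall genes divided between the directions. In upper florets the cellulose synthase gene cesa10 was higher, with 1.38 and 1.16, 0.75 and 1.55, and 0.06 and 1.19 (mean 1.01 ± 0.16, adjusted p = 0.0167). Expansins loosen the wall during cell growth, and the expansin gene expa2 was lower, with -0.28 and -0.92, -1.12 and -1.73, and -0.73 and -1.25 (feature 6006, mean -1.004 ± 0.15, 2.01-fold, adjusted p = 0.0145). All 12 slides of expa2 feature 6006 lay below 0, while feature 1261 had a mean of 0.29 (adjusted p = 0.263). A second cellulose synthase gene, CesA-8, was lower (-0.48 ± 0.10, adjusted p = 0.0289), as was the glucan synthase gene CslF6-1 (-0.37). The list thus held 1 higher and 3 lower members of 25 (16% called, against 7.31%), with a median of 0.01. In cesa10, 10 of 36 scans held a repeated value.

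Heat shock and chaperone genes had a mean difference below 0 in nearly every feature. These proteins keep others folded, and small heat shock proteins are known to accumulate in developing pollen and under heat. Of 25 features from 11 genes, 24 had a mean below 0, with a median of -0.37 against 0.01 over all features. All 6 differences were below 0 in 9 of the 25, against 10.2% of all features. The test passed in 4 of them, all lower, and in 0 higher (16%, against 3.4% of all features called lower). An unadjusted p under 0.05 was found in 16 of the 25, against 3324 of 12160 features. At hsp18c, a small heat shock protein gene, the differences were 0.16 and -0.46 at the early, -0.67 and -1.49 at the mid- and -3.54 and -2.25 at the mid/late stage (feature 10219, mean -1.37 ± 0.19, adjusted p = 0.0122). The value was lower at each later stage in both sets. Small heat shock gene hsp22 was called in both of its features. Feature 8886 had -1.57 and -2.27, -1.44 and -1.50, and -0.78 and -0.79 (mean -1.39 ± 0.26, adjusted p = 0.0251), nearest to 0 at the last stage. In this feature 8 of 36 scans held a repeated value. Feature 4183 of the same gene had 1.42 and -1.52, -1.11 and -3.36, and -2.99 and -3.73 (mean -1.88 ± 0.42, adjusted p = 0.0362), opposite in sign between sets at the early stage.

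The chaperone gene HSP90-2 had -0.32 and -0.65, -0.43 and -0.71, and -1.67 and -0.91 in feature 3978 (mean -0.78 ± 0.16, adjusted p = 0.0296). Its feature 2432 had a mean of -0.62 (adjusted p = 0.0624), and the features of HSP90-1 had means of -0.79 and -0.70, outside the threshold. The 8 features of hsp70-4 had means between -0.37 and 0.03, none of them called. By difference, the median of the list was -0.03 and -0.34 at the early, -0.33 and -0.25 at the mid- and -0.69 and -0.32 at the mid/late stage. At the meiotic stages the 6 medians lay between -0.19 and 0.32. On the slides that compare stages, the change from the early to the mid/late stage was below 0 in 22 of the 25 features, with a median of -0.46 against 0.04 over all features. The calls of hsp22 and HSP90-2 did not hold without 1 of the 6 differences in 5 or 6 of 6 cases, with adjusted p up to 0.116, whereas that of hsp18c ended in 1 case (adjusted p = 0.0512).

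**Figure D2:**
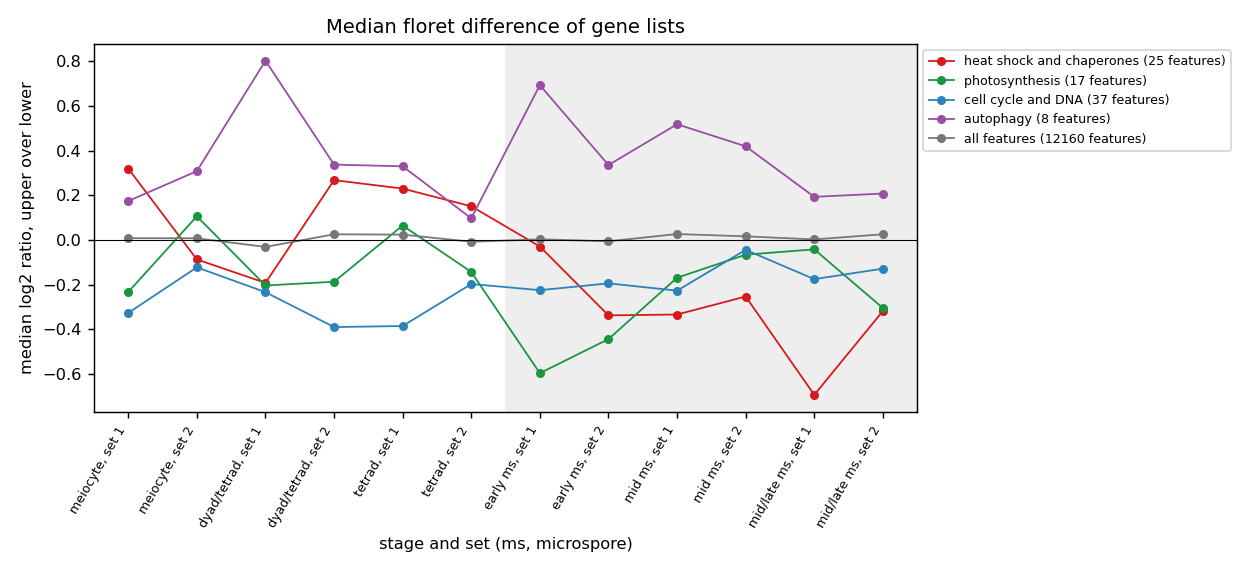
Median log2 ratio of upper over lower florets (y axis) of 4 gene lists and of all features in each of the 12 stage-and-set differences (x axis), with the microspore stages shaded. The heat shock list lies below 0 in all 6 microspore differences. The autophagy list, added after its values were seen, lies above 0 in all 12.

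Features of the photosynthesis list mostly had a mean difference below 0, and 2 passed the test. Of 17 features, 15 had a mean below 0 (88.2%, against 48.3% of all features), with a median of -0.25. The 2 called were both lower (11.8%, against 3.4% of all features). The list, matched by symbol and synonym, did not hold L-FNRII, named as a leaf ferredoxin-NADP reductase. Its feature 10578 was called higher (mean 0.46), with all 12 slides above 0. The chlorophyll a/b binding protein gene CAB1 had -0.87 and -0.69, -0.69 and -0.68, and -0.46 and -0.77 (mean -0.69 ± 0.14, adjusted p = 0.0268). CP24, or lhcb6, a minor antenna protein gene of photosystem II, had -1.15 and -0.52, -0.70 and -0.24, and -0.59 and -0.93 (mean -0.69 ± 0.11, adjusted p = 0.0167). All 12 slides of both features were below 0. The photosystem I gene psaH (feature 2249, -0.72) and the Rubisco small subunit gene rbcS (feature 9047, -0.66) had means as low with adjusted p of 0.0524 and 0.0511. The list's median was farthest from 0 at the early stage, at -0.60 and -0.44. On the slides that compare stages, the change from the early to the mid/late stage was above 0 in 15 of the 17 features, with a median of 0.41.

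DNA replication and chromatin genes were called in one direction only, lower in upper florets. Of 37 features in the cell cycle and DNA list, 6 were called lower (16.2%, against 3.4% of all features) and 0 higher. The median was -0.13, and 27 means lay below 0 (73.0%, against 48.3%). The pattern was not particular to the microspore stages. At the meiotic stages the list's median was -0.18, and its medians by difference were all below 0, from -0.39 to -0.12. The list was extended by the ribonucleotide reductase genes after their values were seen. Without them 4 of 31 features were called lower (12.9%), and 21 means lay below 0 (67.7%). PCNA is the sliding clamp of DNA polymerase, and pcna2 was called in 2 of its 3 features. Feature 6451 had -1.10 and -0.93, -0.87 and -0.35, and -0.12 and -0.29 (mean -0.61 ± 0.09, adjusted p = 0.0145). Feature 1399 had -0.33 and -0.75, -0.68 and -0.57, and -0.27 and -0.32 (mean -0.49, adjusted p = 0.0268), and the third, 8499, had a mean of -0.10. The histone H2B genes his2b2 (-0.62 ± 0.12, adjusted p = 0.0287) and his2b5 (feature 870, -0.53 ± 0.14, adjusted p = 0.0494) were lower, each with all 6 differences below 0. Ribonucleotide reductase makes the deoxyribonucleotides for DNA synthesis. Its small subunit gene RNRS1 (feature 6568, -0.43) and its large subunit gene RNRL2 (feature 4216, -0.37) were lower, and the other RNRS1 features had means of -0.49 and -0.35 outside the threshold. The 8 features of the histone H1 gene his1a had means between -0.57 and 0.15, outside the threshold.

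Autophagy genes, a list added after their values were seen, included 4 features higher in upper florets. ATG8 proteins coat the growing autophagosome membrane, which delivers cell contents to the vacuole for breakdown. Of 8 features, 4 were called higher (50.0%, against 3.91% of all features) and 0 lower, with a median of 0.31, and all 4 were ATG8 features. As the values led to the list, this share says nothing of autophagy genes beyond the features given. Atg8b had 0.89 and 0.41, 1.45 and 0.64, and 0.24 and 0.39 (mean 0.67 ± 0.16, adjusted p = 0.0404). Both features of Atg8d were called, 10613 (0.64 ± 0.12, adjusted p = 0.0252) and 3512 (0.56 ± 0.10, adjusted p = 0.023). Of Atg8e, feature 3593 was called (0.41) and feature 7769 was not (-0.03, 11 of 36 scans at a repeated value). All 12 slides of Atg8b and of both Atg8d features lay above 0.

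Proteolysis genes were led by protease inhibitors. Cystatins inhibit cysteine proteases. The cystatin gene cpi2 was higher in upper florets in all 3 of its features, 6371 (0.56 ± 0.08, adjusted p = 0.0122), 7665 (0.53 ± 0.10, adjusted p = 0.0259) and 10586 (0.42, adjusted p = 0.0452). A different cystatin gene, cc7, was lower, with -1.11 and -0.94, -1.02 and -0.67, and -0.82 and -0.17 (mean -0.79 ± 0.11, adjusted p = 0.0128). Cysteine protease gene cys2 was lower as well (-0.43). In this list 3 of 12 features were higher and 2 lower (41.7% called, against 7.31%), with a median of 0.21.

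Other named genes lower in upper florets were ec2e, PMP3, glu1, CNR08, trm1 and gst1. Gene ec2e, also rpl39 for a ribosomal protein, had -2.69 and -1.37, -2.08 and -0.61, and -1.39 and -0.45 in feature 2086, with set 1 lower than set 2 at each stage (mean -1.43 ± 0.25, adjusted p = 0.0207). Its second feature, 8591, had a mean of -0.01, with 9 of 36 scans at a repeated value. PMP3, a small plasma membrane protein gene, was called in 2 of 3 features, with means of -1.14 ± 0.23 (6005) and -1.03 ± 0.18 (7219), and the third, 3774, had -0.66 (adjusted p = 0.0893). The beta-glucosidase gene glu1, whose product releases defence benzoxazinoids from their glucosides, had -0.16 and -0.62, -1.37 and -1.06, and -1.44 and -1.42 (mean -1.01 ± 0.24, adjusted p = 0.0441). CNR08, of the cell number regulator family, was called in both features (6771, -0.82; 3524, -0.55). The thioredoxin m gene trm1 (-0.64 ± 0.12, adjusted p = 0.0254) and the glutathione S-transferase gene gst1 (9553, -0.50; 4115, -0.47) were the 3 called features of 46 in the oxidative stress list (6.52%, against 7.31% of all features called).

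The other lists held between 0 and 2 calls each, where 7.31% of all features were called. In the starch and sucrose list, 2 of 17 features (11.8%) were lower, glct1, a plastid glucose transporter gene (feature 7928, -0.53), and GBSSIIa, a granule-bound starch synthase gene (-0.40). The aquaporin and transporter list had 2 of 34 higher, the tonoplast aquaporin gene tip1 (feature 11195, 0.55) and the proton pump gene mha2 (0.39). In the cytoskeleton list 1 of 35 was higher, TUBC, a gamma-tubulin gene (feature 5897, 0.59). The fatty acid list had 1 of 10 higher, the stearoyl desaturase gene sad1 (feature 7499, 0.34). Among 22 ribosomal protein features only ec2e was called. No feature of the flavonoid and phenylpropanoid (16), ubiquitin and proteasome (11) or mitochondrial energy (14) lists was called, and their medians were 0.07, -0.02 and 0.04. At an unadjusted p under 0.05 in limma they held 4, 1 and 1 features, where 3324 of all 12160 features had such a p.

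Among the markers of meiocytes, tapetum, pollen and kernels no feature was called. At an unadjusted p under 0.05 in limma there were 2 of 5 meiocyte, 0 of 1 tapetum, 1 of 5 pollen and 0 of 4 kernel features. Over the whole array 3324 of 12160 features had such a p. Genes planned as markers of the anther wall and other green tissue fall in the photosynthesis list above. In that list 2 of 17 features, CAB1 and CP24, were called lower. The 5 meiocyte marker features had a median of -0.10 and a range from -0.72 (mad2, adjusted p = 0.0632) to 0.26. The single tapetum marker, ms23, a transcription factor gene needed for tapetum development, had a mean of 0.19 (adjusted p = 0.296). The 5 pollen marker features lay between -0.58 and 0.14. The 4 kernel storage protein features, not expected in anthers, lay between -0.32 and 0.20. Ratios do not show which of these markers were present at all, and the part of cell composition in the results was not tested.

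Single stages had 2 pools per floret and gave few calls. The early stage had 6 called features (0.0493%), and the mid- and mid/late stages had 4 each (0.0329%). Of these, only hsp18c at the mid/late stage had a gene name (mean -2.90, adjusted p = 0.033). Fitting the 6 microspore differences alone left 0 of these 14 stage calls. Features 2136 and 8978, which have no gene in the annotation used here, were lower in upper florets at all 3 stages. Feature 2136 had -2.54 and -2.02, -2.22 and -1.72, and -2.17 and -2.17. The 6 values of feature 8978 lay between -2.12 and -1.45. At the early stage LOC100381829 (feature 11936) was higher, at 3.68 and 2.15, while its 4 later values were between 0.27 and 0.54. At the mid-stage LOC100280032 (feature 4520) had 1.38 and 1.74, and its other 4 values lay between 0.72 and 1.07.

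Whether the floret difference varied over the 3 stages was tested by an F test. It called 0 of 12160 features (0%), with 434 at an unadjusted p under 0.05 and a smallest adjusted p of 0.999. The stage orders given above for hsp18c, GIF2, VTE5, both hsp22 features and the MADS feature are therefore descriptions of 6 values each. The 6 differences themselves were moderately alike. Across all features, the correlation between the sets at one stage lay between 0.311 and 0.395. Between stages of one set it was 0.255 to 0.498, and with neither shared 0.125 to 0.415.

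The microspore stages were then set against the meiotic stages (meiocyte, dyad/tetrad and tetrad), which had 6 floret differences from 12 further slides. The test of microspore minus meiotic difference called 0 of 12160 features (0%). There were 907 at an unadjusted p under 0.05, and the smallest adjusted p was 0.0868. Of the 889 features called at the microspore stages, 818 (92%) had a mean of the same sign at the meiotic stages, against 8948 (73.6%) of all features. The called higher features had a median of 0.53 at microspore and 0.35 at meiotic stages, and the called lower ones -0.54 and -0.42. As the microspore values chose these features, the medians of the periods are not on equal footing. The same holds for their share of equal sign beside that of all features. All 12 differences lay on one side of 0 in 458 called features, and in 1002 (8.24%) of the whole array.

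**Figure D3:**
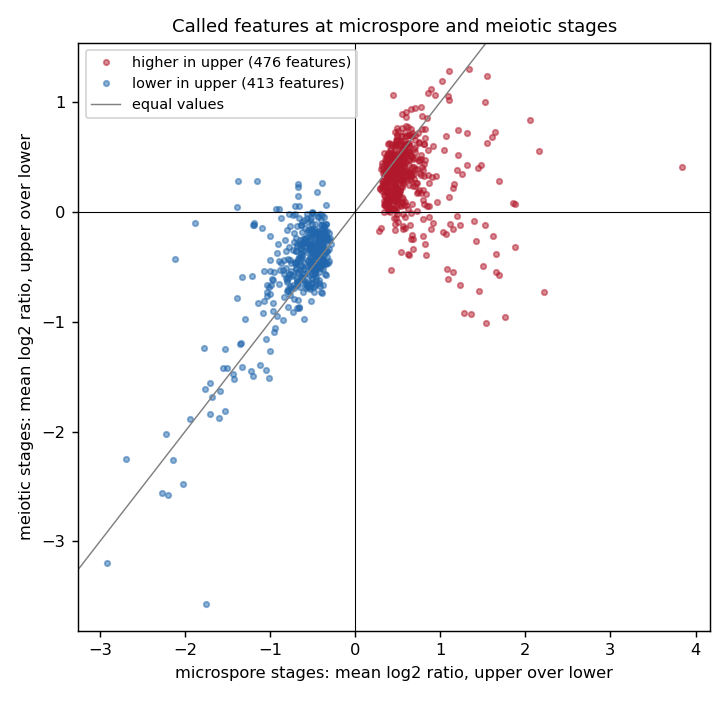
Mean log2 ratio of upper over lower florets at the microspore stages (x axis) and at the meiotic stages (y axis) for the 889 called features, coloured by direction, with a line of equal values. Of these points, 818 lie in the quadrants of equal sign; the x axis chose the features.

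Some named genes stood on one side of 0 throughout. The MADS feature 3767 had means of 1.10 at microspore and 1.28 at meiotic stages, mpk6 had 0.78 and 0.87, cesa10 1.01 and 1.19, and bZip37 -1.94 and -1.88. All 12 differences of these 4 features had one sign. Other named genes had means farther apart between the periods, or of opposite sign, and none passed the test of the change. For hsp18c the means were -1.37 at microspore and 0.28 at meiotic stages, where all 6 differences were above 0, and the change was -1.66 ± 0.27 (adjusted p = 0.147). GIF2 feature 513 had 0.66 and 0.07 (change 0.59 ± 0.11, adjusted p = 0.219), and VTE5 had 1.07 and -0.52 (change 1.59 ± 0.33, adjusted p = 0.339). EF1-A feature 2603 had 1.42 and -0.26 (adjusted p = 0.458), SnRK2.8 had 0.80 and -0.22 (adjusted p = 0.378), and CP24 had -0.69 and -0.13 (adjusted p = 0.46).

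**Figure D4:**
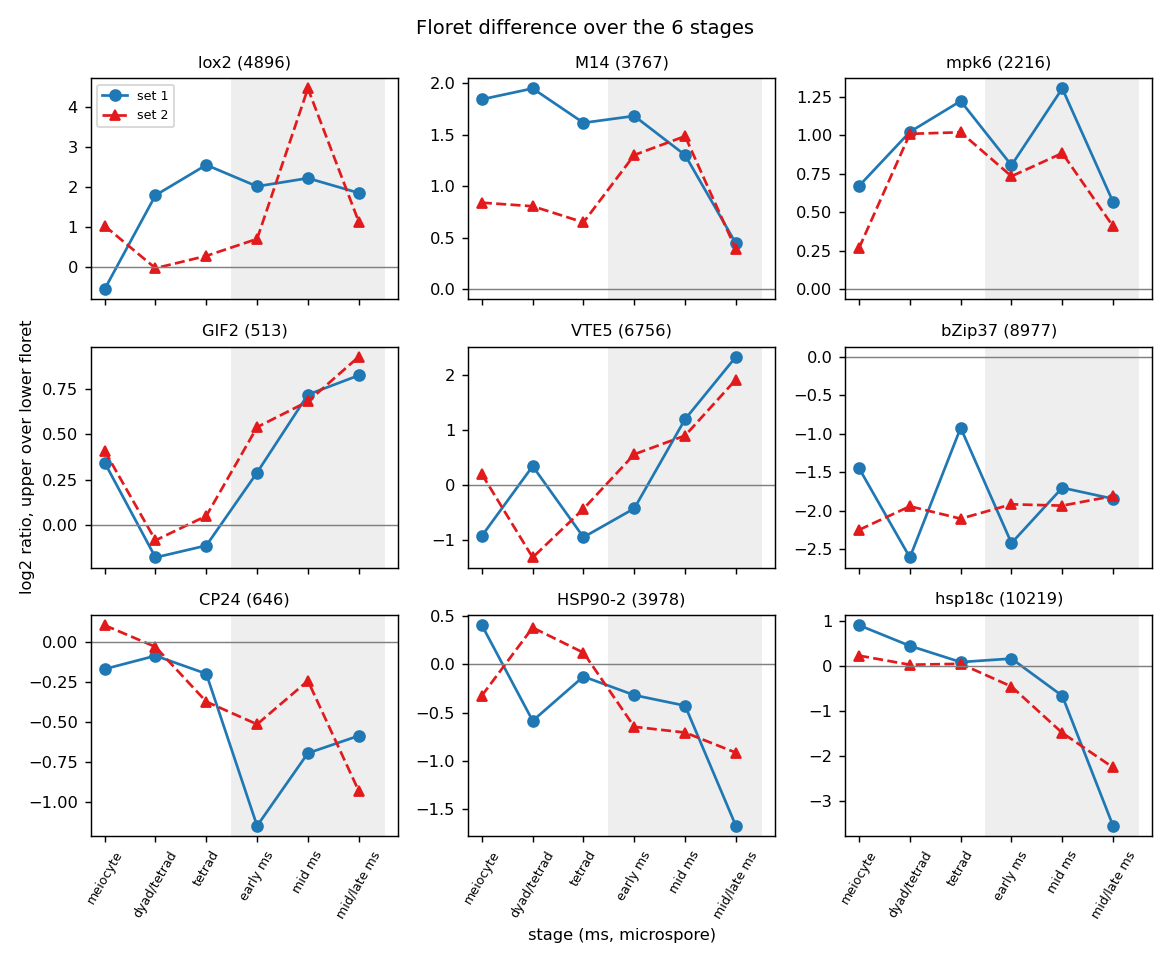
Log2 ratio of upper over lower florets (y axis, own scale per panel) at the 6 stages (x axis; microspore stages shaded) for 9 features, set 1 as circles and set 2 as triangles. The differences of hsp18c run to -3.54 and -2.25 at the last stage, while those of bZip37 stay below 0 at every stage.

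Single slides were also set out by the dye of the upper pool. These slides are the ones averaged into the 6 differences, and the features were picked among called ones. One-sided slides were thus largely built in. Some called features were less one-sided. On the side of the mean lay 10 of 12 slides for cesa10 and hsp22 feature 4183, and 8 of 12 for Natterin-4. Among the 9 features in the plot of single slides, lox2, mpk6, GIF2, CP24, expa2, hsp22 (feature 8886) and bZip37 had all 12 slides on one side of 0. The MADS feature and pcna2 (feature 6451) had 11 of 12. With the upper pool in Cy5 the median of the MADS feature over 6 slides was 1.26, and with it in Cy3 1.35. For glossy2 the medians were 0.38 and 1.22, and for SnRK2.8 0.31 and 1.38, in the same order of dyes.

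**Figure D5:**
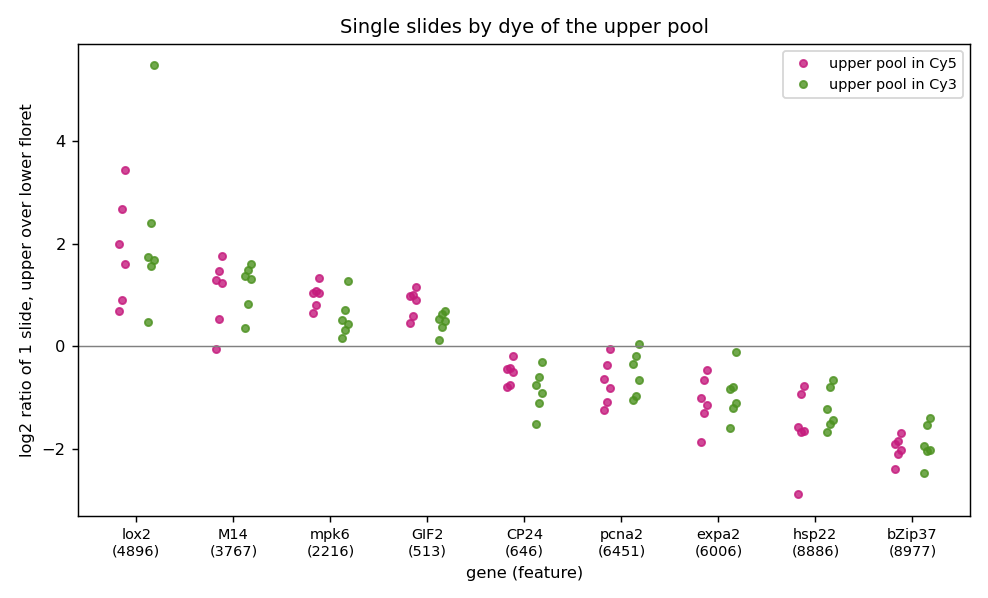
Log2 ratio of upper over lower florets on each of the 12 slides (y axis) for 9 features (x axis), coloured by the dye of the upper pool, 6 slides each. In 7 of the 9 features, which were picked among called ones, all slides lie on one side of 0.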

How the data were processed

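Deposited files hold 1 log ratio, likely a natural log, per spot and scan of the 2-colour cDNA arrays. The authors' normalisation left column medians between -0.0252 and 0.0327, and its software is not stated in the sources used here. The base was read from the values. Spots at whole multiples of a floor, read as repeated values of low scans, gave 63 matches to natural logs, 5 to log10 and 0 to log2 (tolerance 5e-06). Low scans hold many features at one repeated value, likely that of dim spots. It may draw averages of such features toward 0, which was not tested.

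Values were brought to the log2 scale and centred by subtracting the median of every scan. Means were then taken over the 3 scans and, as deposited, over the 2 dye orders of a stage and set. limma 3.58.1 (R 4.3.3) was fitted to the 12 floret differences of all 6 stages with a mean per stage, giving 6 residual and 3 prior degrees of freedom. Contrasts were the microspore mean, each microspore stage (p-values of the 3 stages adjusted together), an F test over these stages, and the microspore minus the meiotic mean. The threshold was a Benjamini-Hochberg adjusted p under 0.05. Python 3.11.15 and matplotlib 3.10.9 drew the figures.

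Of 12160 features, 6412 had 1 gene, 214 several and 5534 none here. Of these, 6358 were matched by gene number to RefSeq names of the Zm-B73-REFERENCE-NAM-5.0 assembly. A gene name, taken as a symbol or synonym that is no locus, clone or marker code, was held by 1142 features of 796 genes. Named features were, among those called with a gene name and one sign, the 15 largest per direction for the microspore mean, 3 per direction for each stage, 5 for the variation over stages, 4 per direction for the contrast with meiosis, and the 3 largest of each list. Other list members, other features of a gene and those of the single-stage paragraph were chosen after their values were seen. Members and lists were chosen with earlier results of these data known, and lists were matched by symbol and synonym only. Autophagy, MADS box and ribonucleotide reductase entries were added later.

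Set numbers were checked as pairs. The deviations between sets correlated at 0.271, 0.118 and -0.0246 between stages, and set was made no term of the fit. The fit takes differences of one set as independent, which was not tested. The set as a replicate block is a fixed term and does not test it. Alternatives covered single scans, the median of scans, centring, scaling, dye orders, a fit of pool values to all 48 slides, the set as a replicate block, the log base, the samples fitted and the omission of each difference.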

Additional observations from a re-analysis of the deposited data

Results flagged for a closer look

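In 3 of the 50 named and listed features, 1 of the 6 microspore differences stood far from the others by Dixon's gap ratio at its 95% critical value for 6 values. Chance marks about 1 in 20 groups. The early difference of set 1 was -2.42 for bZip37 feature 8977 (gap ratio 0.677). The mid/late difference of set 2 was -2.42 for PMP3 feature 6005 (gap ratio 0.679) and -0.89 for GBSSIIa feature 1487 (gap ratio 0.769). Each stood farther from 0 than the feature's other 5 values, on the same side.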

How the results depend on the processing

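The 889 calls of the microspore mean became 481 when the low, 503 when the medium and 481 when the high scan was used by itself. Scaling scans to one spread gave 1587. Turning floret slides by their dyes gave 514 (372 higher, 142 lower), of which 15 were called in the same direction as reported. Without 1 difference the count lay between 33 and 449. Across the 3 stages 14 calls became 5 with the high scan alone, 90 with scaling, 0 with slides turned, 9 with only slides with the upper pool in Cy5, 6 with only the lower pool in Cy5, 26 with pool values from all 48 slides and 0 with the 6 microspore differences alone. Without 1 difference they were 4 to 29. For variation over stages, leave-outs gave 0 to 3. For microspore minus meiotic, 1 was called with the medium scan, 2 with the median of scans, 4 with pool values and 0 to 1 without 1 difference. With the set as a replicate block, 957 features were called for the microspore mean (804 in common with the 889) and 10 for single stages. Every other alternative kept each count within 1.5 times. Similar counts were not always the same features. Of the 889, 403 were called again in the same direction with only the upper pool in Cy5, and 563 with only the lower pool in Cy5. Pool values kept 684 and the median of scans 796. The 6 microspore differences alone kept 581 with a mean per stage and 714 with no stage term. The causes of these changes were not tested. Single scans and fits without 1 difference hold fewer data, and the part of this in the counts was not tested.

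Of 50 named and listed features, bZip37, mpk6 and GIF2 kept their call in all 6 leave-outs and 24 lost it in all 6. Calls also ended in 18 of the 50 with the low, 20 with the medium and 20 with the high scan alone. Slides with the upper pool in Cy5 ended 19, those with the lower pool in Cy5 14, and pool values 11. The 6 microspore differences alone ended 11 with a mean per stage and 9 with no stage term. The set as a replicate block ended 4, the median of scans 4, no centring 1, and turned slides 20 beside those reversed. Leave-outs could not reverse a sign where all 6 differences lay on one side of 0. No other alternative than the turned slides reversed a sign. With the slides turned, 28 did. Among genes higher in upper florets the values became -0.17 and -0.12 (lox2 features 4896 and 10163), -0.0614 (M14), -0.23 (cesa10), -0.0741 (PRR59), -0.41 (glossy2), -0.0292 (COAC1), -0.11 (GRF2), -0.19 (tm20), -0.00605 (Atg8b), -0.0553 (tip1), -0.0685 (mha2), -0.0329 (TUBC), -0.44 (SnRK2.8), -0.0324 (sad1) and -0.13 and -0.20 (cpi2 features 6371 and 7665). Among genes lower in upper florets they became 0.20 (ec2e), 0.0247 (cc7), 0.0278 (HSP90-2), 0.17 (CP24), 0.16 (aos1), 0.23 (his2b5), 0.00432 (CesA-8), 0.0797 (hsp22 feature 4183), 0.0323 (PP2C18), 0.00691 (gst1 feature 4115) and 0.0555 (GBSSIIa).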

Other observations

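Some of the strongest differences belonged to features with no gene name, chosen after their values were seen. LOC100192046 (feature 2114) was lower in upper florets, with -5.50 and -2.17 at the early, -3.45 and -1.05 at the mid- and -3.28 and -0.75 at the mid/late stage (set 1 and then set 2). LOC100280101 (feature 2213) had -3.50 and -1.57, -3.55 and -0.69, and -3.72 and -0.57, and LOC100192685 (feature 8189) had -3.57 and -2.10, -3.78 and -0.71, and -2.61 and -0.41. In all 3 features set 1 was farther from 0 than set 2 at every stage, and their meiotic means were -2.25, -2.56 and -2.58. Feature 8977 (bZip37) and feature 8978 (no gene here) carry neighbouring numbers, and both were lower in upper florets in all 12 differences, with microspore means of -1.94 and -1.70.

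Higher in upper florets was LOC100275340 (feature 1836), at 0.10 and 1.78, 2.39 and 2.48, and 3.60 and 2.93, with a microspore mean of 2.21 against a meiotic mean of -0.73. The feature with the smallest p for microspore minus meiotic was pco099562b (feature 8480), with means of 1.36 and -0.93 (adjusted p = 0.0868). It did not pass. The highest mean of all, 3.84 in feature 8665 (no gene here), came from values of 7.70 and 6.17, 2.73 and 0.52, and -1.35 and 7.26, which differed by over 8 log2 units between sets at the mid/late stage.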
